A study of Mus musculus with 5 samples.

Results

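The TGF-β and BMP signaling genes described here are 10 genes taken by symbol from a table of read counts for 24527 mouse genes: the ligands Tgfb1, Tgfb2, Tgfb3, Bmp4 and Bmp7, the receptors Tgfbr1, Tgfbr2 and Tgfbr3, and the intracellular genes Id1 and Smad7. All 10 had an entry and passed the filter on low counts. RNA had been sequenced from bulk tumor tissue of the prostate in TripleTg mice with or without castration, to ask how castration alters tumors in which the HGF/MET and Wnt pathways are both switched on. Every mouse in both groups carried the genotype hHGFtg-hMETtg-BCAT-PBCre. This stands for human HGF expressed from a transgene throughout the body, together with human MET and stabilized β-catenin, which are both switched on in prostate epithelium by a Cre recombinase that the probasin promoter drives. Castration was performed at 4 months of age in 3 mice, which were analyzed at 8 months, and the 2 intact mice were of the same age and genotype. No mouse without the transgenes was part of the comparison, and the probasin promoter is itself androgen-responsive. Each sample was a separate animal, with total counts of 28015507, 18951782 and 20492061 for castrated replicates 1 to 3, and of 21560355 and 22853501 for the intact replicates.

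Some libraries stood apart from the others of their group. The tissue was labeled as prostate, and the luminal keratin Krt8 was abundant in all 5 samples, between 661 and 1155 CPM (counts per 1000000, made comparable between libraries by TMM, the trimmed mean of M-values). Tgm4, a prostate secretory transglutaminase, was at 1347 CPM in intact replicate 2 and at 0.419 CPM or less in the other 4 samples, and the secretory gene Msmb had no count in any sample, which by counting error alone allows up to 0.105 to 0.161 CPM (3 counts per library). Pbsn, the mouse's own probasin gene, was at 5.21 CPM in intact replicate 2 and at 0.454 CPM or less in the other 4 samples. Adiponectin (Adipoq), a fat cell hormone, was at 68.8 CPM in castrated replicate 2 and 68.3 CPM in castrated replicate 3, but at 0.523 CPM or less in the other 3 samples. For this reason many of the results are also given without single mice. In bulk tissue, fewer cells of a type and less RNA per cell cannot be told apart.

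TGF-β ligands are secreted in a latent form bound to the matrix, and once freed they bind TGFBR2, which then activates TGFBR1 to phosphorylate SMAD2 and SMAD3. BMP ligands use related receptors that phosphorylate SMAD1, SMAD5 and SMAD9, and Id1 is a classical direct target of these. Both branches induce the inhibitory SMADs, SMAD6 and SMAD7, which switch the receptors off again. In the prostate, TGF-β is known as a growth inhibitor of normal epithelium and as a driver of matrix production in stroma, and BMP4 and BMP7 are known for restraining ductal budding during development.

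Compared per transcript length (TPM, counts divided by the gene's length and scaled to a sum of 1000000 per sample), the 10 genes were of middle to high abundance in the tumors. Tgfbr2 had the highest mean level, 147 TPM over the 5 samples, and was above 92.5% of the tested genes. Id1 (134 TPM) and Tgfb1 (117 TPM) followed, and the ranges of these 3 genes over the samples overlapped widely, so that their order did not exceed their spread. Next came Bmp7 (73.2 TPM), Tgfbr1 (62.5 TPM), Bmp4 (51.9 TPM), Tgfb3 (44.5 TPM), Tgfb2 (39.0 TPM) and Smad7 (38.6 TPM), each again within the range of its neighbor. Tgfbr3 had the lowest mean over the 5 samples, 28.2 TPM, and its range of 14.0 to 46.0 TPM overlapped that of Smad7. It was lowest in the mean of intact samples (14.5 TPM). In castrated samples its mean of 37.3 TPM was above those of Smad7 (33.4 TPM), Tgfb2 (34.2 TPM) and Bmp4 (36.6 TPM). The genes differed more in how much they varied among mice: the highest sample was 1.68 times the lowest for Tgfbr1, but 9.90 times for Bmp4.

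Castrated and intact samples differed most clearly in the co-receptor Tgfbr3, which was higher in every castrated sample, and in the inhibitor Smad7, which was lower in every castrated sample. For each of the 5 ligands the groups overlapped, and the 2 intact mice differed from each other by more than 2-fold. So did 31.5% of all genes. After adjustment over all genes tested, 0 of the 10 genes had an adjusted p under 0.05 with an absolute log2 fold change above 1 (edgeR quasi-likelihood F-test), where 0% of the 14612 genes tested were called. Tgfbr3 was the 1 member with an unadjusted p under 0.05, a share to be read against 15.0% of all genes tested. Without castrated replicate 1, 3 of 10 members had such a p, against 16.5% of all genes. DESeq2 called 1 of the 10, Tgfbr3, and 6.77% of all genes, the likelihood ratio test called 0 of the 10 and 2.53% of all genes, and limma voom called none. In 1 member (Tgfbr3) all castrated samples lay above both intact samples, as did 17.0% of all genes, and in 1 member (Smad7) all lay below, as did 16.1% of all genes, which gave 2 of the 10 without overlap against 33.1% of all genes. The 10 genes had a median log2 fold change of -0.27, with 4 higher and 6 lower on average in castrated samples, beside a median of -0.03 and 47.9% higher for all genes tested. This median was 0.60 without intact replicate 1 and -0.31 without intact replicate 2. Separation is easier to meet with 1 intact mouse left. Without intact replicate 1, 5 of 10 members lay above (36.4% of all genes) and 3 below (35.6%). Without intact replicate 2, 5 members lay below (34.4%) and 1 above (33.0%). An exact permutation test of 3 against 2 samples cannot give a two-sided p below 0.1, so no single gene could pass 0.05 by that route, and Tgfbr3 was the 1 member that reached 0.1.

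**Figure D1:**
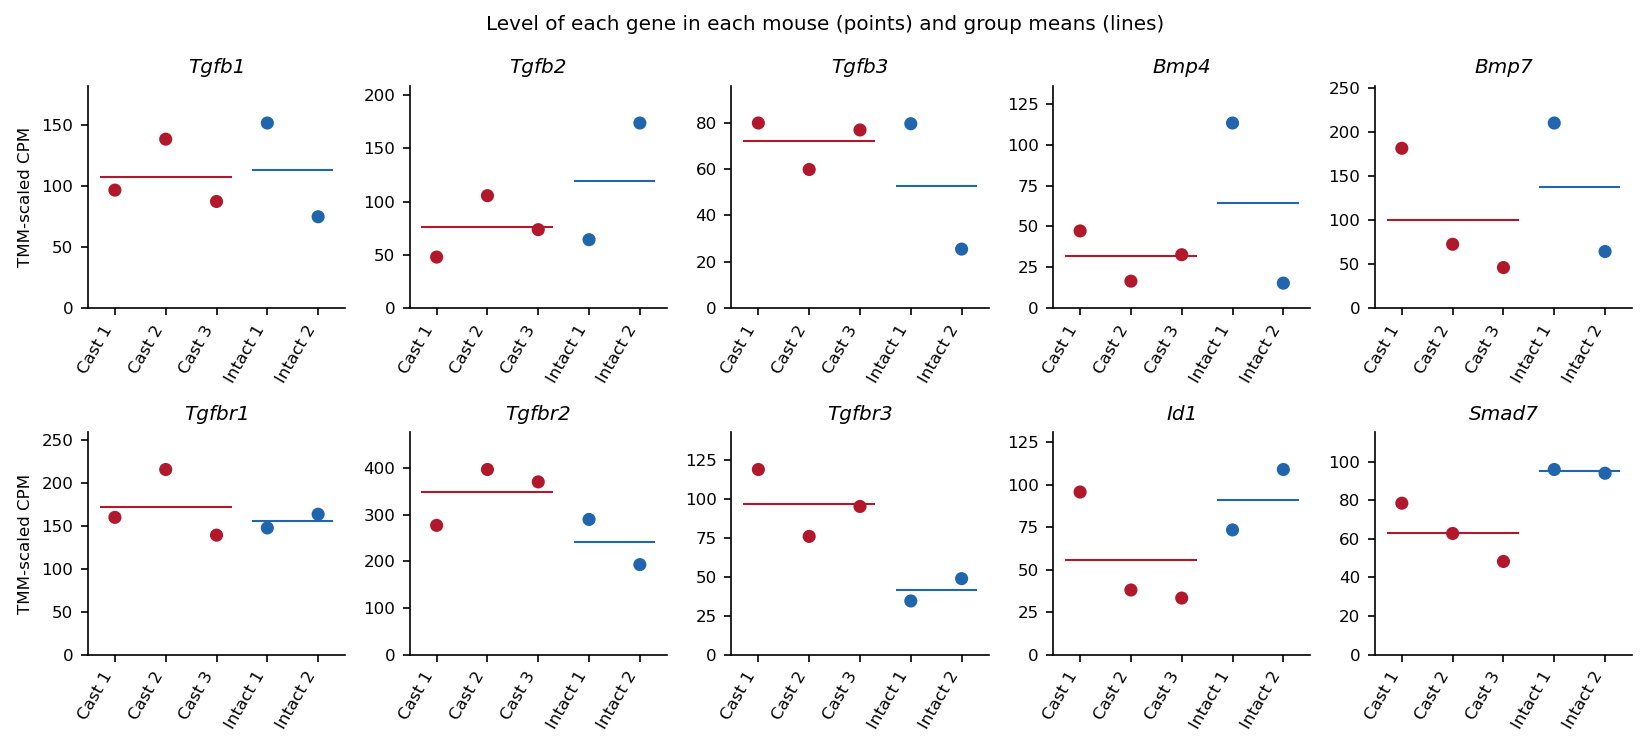
Level of each of the 10 genes in each mouse as TMM-scaled CPM (y axis, linear from 0), with castrated mice in red and intact mice in blue; points are single mice and lines are group means. The groups were separate for Tgfbr3 (34.5 and 48.8 CPM in intact mice, 75.9 CPM or more in castrated mice) and for Smad7, and overlapped for the other 8 genes.

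Among the receptors, Tgfbr3 encodes betaglycan, a membrane proteoglycan that presents TGF-β, above all TGF-β2, to the signaling receptors. It lies on chromosome 5 from 107106567 to 107289629 on the minus strand (build mm10). Tgfbr3 was at 119, 75.9 and 95.2 CPM for castrated replicates 1 to 3, and at 34.5 and 48.8 CPM for intact replicates 1 and 2. The lowest castrated sample was thus above the higher intact sample. The mean was 96.7 ± 21.5 CPM (SD, n = 3) in castrated and 41.6 ± 10.1 CPM (SD, n = 2) in intact samples, a log2 difference of 1.22 (standard error, SE, 0.29; edgeR adjusted p = 0.289). Leaving out any one mouse kept the log2 fold change between 1.01 and 1.45. Its adjusted p was 0.00915 with DESeq2 and ranged from 0.00915 to 0.689 over all alternatives.

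Tgfbr2, the ligand-binding kinase receptor, lies on chromosome 9 from 116087695 to 116175363 on the minus strand. It was at 277, 397 and 371 CPM in castrated samples, and at 290.1 and 193 CPM in intact samples. Castrated replicates 2 and 3 were above both intact samples, while castrated replicate 1 lay between them. Its fitted log2 difference was 0.53 (SE 0.29, edgeR adjusted p = 0.437), and it was 0.22 without intact replicate 2 and 0.87 without intact replicate 1. Tgfbr1, the kinase that acts next in the chain, lies on chromosome 4 from 47353222 to 47414924 on the plus strand. Its levels were 160.1, 216 and 139 CPM in castrated samples, and 148 and 164 CPM in intact samples. Both intact samples fell inside the castrated range, with a log2 difference of 0.14 (SE 0.25, edgeR adjusted p = 0.815). Within a sample, betaglycan made up a larger part of the 3 receptor transcripts in some castrated mice. Its share of their summed TPM was 18.8%, 9.51% and 13.5% for castrated replicates 1 to 3 but 6.24% and 10.6% for the intact ones, so that the groups overlapped by castrated replicate 2.

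**Figure D2:**
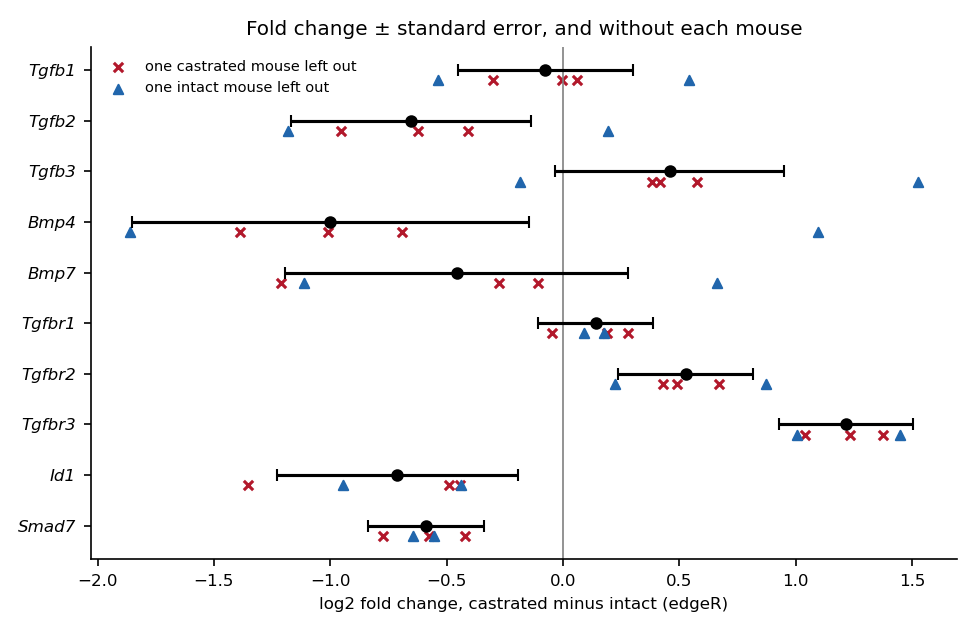
Log2 fold change of castrated over intact samples from edgeR for each of the 10 genes (x axis), with black points and bars for the estimate and its standard error from all 5 mice, red crosses for fits without one castrated mouse and blue triangles for fits without one intact mouse. All fits of Tgfbr3 stayed between 1.01 and 1.45 and all of Smad7 between -0.77 and -0.42, while the 5 ligands lay on both sides of 0 depending on the intact mouse left out.

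The TGF-β ligands are encoded by 3 genes that bind the same receptors. Tgfb1, on chromosome 7 from 25687002 to 25705077 on the plus strand, is the form made widely by immune and stromal cells. It was at 96.7, 139 and 87.4 CPM in castrated samples, and at 152 and 74.9 CPM in intact samples. The 2 intact mice held both the highest and the lowest value of the 5. For Tgfb1 the log2 fold change was -0.08 (SE 0.37, edgeR adjusted p = 0.941), and it was 0.54 without intact replicate 1 and -0.54 without intact replicate 2.

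Tgfb2, on chromosome 1 from 186622792 to 186705989 on the minus strand, encodes the form that depends most on betaglycan for binding. Its levels were 47.8, 105 and 73.6 CPM in castrated samples, and 64.2 and 174 CPM in intact samples. Intact replicate 2, the sample with high Tgm4, was above all others, while intact replicate 1 was inside the castrated range. On the log2 scale the difference was -0.65 (SE 0.52, edgeR adjusted p = 0.583), and 0.19 without intact replicate 2. Tgfb3, on chromosome 12 from 86056743 to 86079041 on the minus strand, showed the opposite order in the intact mice. It was at 79.9, 59.9 and 76.9 CPM in castrated samples, and at 79.6 and 25.5 CPM in intact samples. Only intact replicate 2 was outside the range of the castrated samples, and it was lower. Its fitted log2 difference was 0.46 (SE 0.49, edgeR adjusted p = 0.691), and it was 1.52 without intact replicate 1 and -0.18 without intact replicate 2.

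The mixture of TGF-β transcripts differed in intact replicate 2 from that in the other 4 tumors. Tgfb2 made up 44.3% of the summed TPM of the 3 ligands in intact replicate 2, against 11.7% in intact replicate 1 and between 11.9% and 19.9% in castrated samples. Tgfb1 made up 45.7% in intact replicate 2 and between 52.2% and 66.1% in the others. The TPM of Tgfb2 was 4.44 times that of Tgfb3 in intact replicate 2, while this ratio was 1.15 or less in the other 4 samples.

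Bmp4 and Bmp7, the BMP members, had the widest ratio of highest to lowest sample of the 10 genes (9.90 and 4.87 by TPM). Bmp4, on chromosome 14 from 46383525 to 46390669 on the minus strand, was at 47.2, 16.5 and 32.6 CPM in castrated samples, and at 113 and 15.2 CPM in intact samples. Intact replicate 1 was the highest sample and intact replicate 2 the lowest, a 7.43-fold difference within the group. On the log2 scale the difference was -1.0 (SE 0.85, edgeR adjusted p = 0.613), and 1.10 without intact replicate 1. Bmp7, on chromosome 2 from 172868012 to 172940321 on the minus strand, was at 181, 72.3 and 45.9 CPM in castrated samples, and at 209.9 and 64.1 CPM in intact samples. Castrated replicate 1 and intact replicate 1 were high, and the other 3 samples were low, so that the groups overlapped. Its fitted log2 difference was -0.46 (SE 0.74, edgeR adjusted p = 0.797), and 0.66 without intact replicate 1. Across the group, all 5 ligands differed more than 2-fold between the 2 intact mice, and 0 of the 5 receptor and intracellular members did. Of all genes tested, 31.5% differed that much between these mice, as did 36 of the 61 other pathway genes tested.

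**Figure D3:**
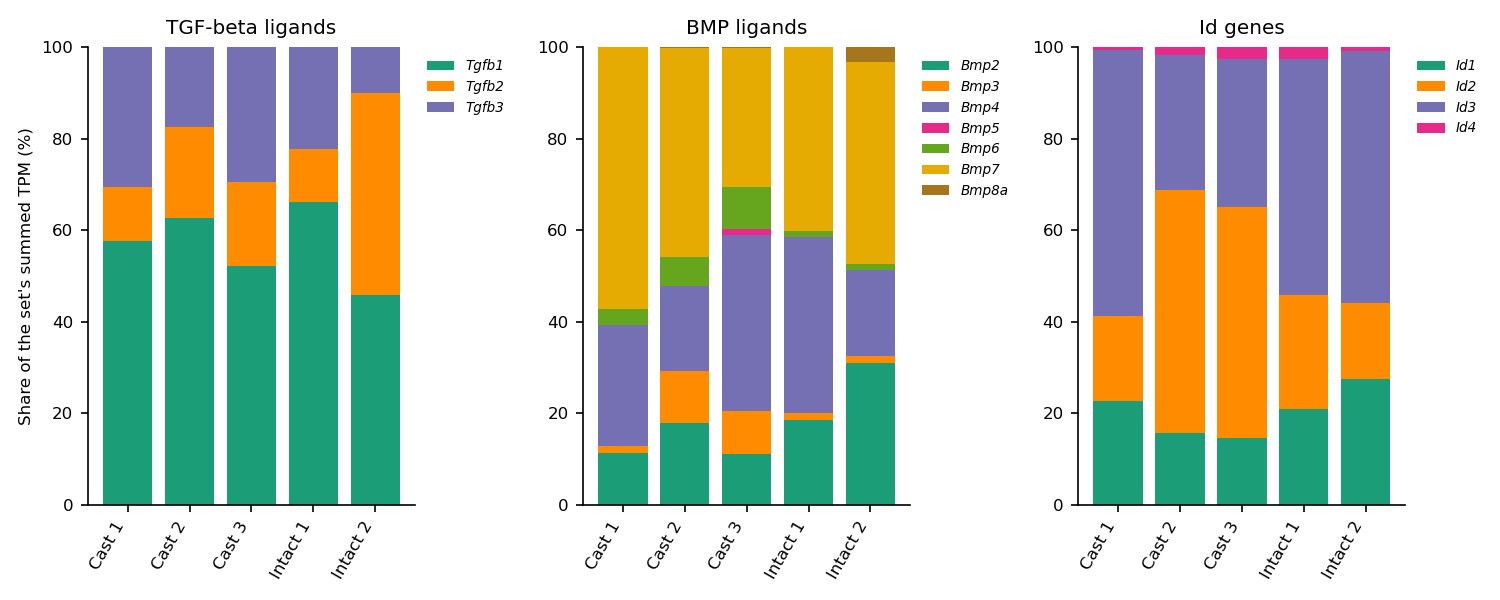
Share of each gene in the summed TPM of its set (y axis, percent) in each of the 3 castrated (Cast) and 2 intact mice, for the TGF-β ligands, the BMP ligands and the Id genes. Tgfb2 took 44.3% of TGF-β ligand transcripts in intact replicate 2 and at most 19.9% in the other mice, and Id2 took 53.2% and 50.5% of Id transcripts in castrated replicates 2 and 3 and at most 25.0% in the other mice.

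Id1 encodes an inhibitor of basic helix-loop-helix transcription factors and is induced by BMP receptors. It lies on chromosome 2 from 152736251 to 152737410 on the plus strand. Its levels were 95.6, 38.0 and 33.2 CPM in castrated samples, and 73.3 and 109 CPM in intact samples. Castrated replicates 2 and 3 were below both intact samples, whereas castrated replicate 1 lay between them. On the log2 scale the difference was -0.71 (SE 0.52, edgeR adjusted p = 0.551), and -1.35 without castrated replicate 1. Smad7, on chromosome 18 from 75367365 to 75395934 on the plus strand, was at 78.5, 62.8 and 48.3 CPM in castrated samples, and at 96.0 and 94.0 CPM in intact samples. All castrated samples were below both intact samples, which differed from each other by 1.02 times. The mean was 63.2 ± 15.1 CPM (SD, n = 3) in castrated and 95.0 ± 1.38 CPM (SD, n = 2) in intact samples, a log2 difference of -0.59 (SE 0.25, edgeR adjusted p = 0.351).

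The second inhibitory SMAD, Smad6, had the same order of groups as Smad7. It was at 15.3, 9.71 and 11.7 CPM in castrated samples, and at 26.8 and 20.6 CPM in intact samples, without overlap. The difference on the log2 scale was -0.95 (SE 0.31, edgeR adjusted p = 0.302), and between -1.17 and -0.73 when single mice were left out. Castrated samples lay below both intact samples for 1 of 6 nuclear and ubiquitin regulators (Smad6), beside 16.1% of all genes. The promoter of Smad6 is shown because it holds the palindromic SMAD-binding box GTCTAGAC. Whether this box bears on the level of Smad6 was not tested. The sequence is that of RefSeq (GRCm38.p6, the assembly also named mm10) at chr9:64022010-64022309 on the minus strand, 5′ to 3′, with the box in capitals, starting 4 bases before the start site.

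Smad6 promoter: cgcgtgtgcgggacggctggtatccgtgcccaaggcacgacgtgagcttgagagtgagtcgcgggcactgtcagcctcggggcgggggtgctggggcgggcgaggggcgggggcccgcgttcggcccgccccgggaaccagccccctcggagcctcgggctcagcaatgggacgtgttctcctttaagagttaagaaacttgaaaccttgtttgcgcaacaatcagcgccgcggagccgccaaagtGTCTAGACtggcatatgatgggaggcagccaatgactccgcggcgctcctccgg

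Promoter sequences could be matched for 5 of the 10 members (Tgfb1, Tgfb2, Tgfbr1, Tgfbr2 and Bmp4) and 49 of the other pathway genes, and those of Tgfb3, Tgfbr3, Bmp7, Id1 and Smad7 were not analysed here. GTCTAGAC, which reads the same on both strands, was in 0.213% of all 32851 promoter windows of this length. It was in 0 of the 6 windows of these 5 members and in 1 of the 64 windows of the pathway list, that of Smad6. GGCGCC, a GC-rich SMAD element that is also palindromic and does not overlap with GTCTAGAC, was in 11.9% of all windows, in 16.7% of those of the members (Tgfbr1) and in 28.1% of those of the pathway list. These matches describe the letters in the windows, not binding sites.

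The wider pathway was read from a list of 65 other genes, of which 61 passed the filter on low counts. Of these 61 genes, 0 were called by edgeR. DESeq2 called 3, beside 6.77% of all genes, and the likelihood ratio test called 1, beside 2.53% of all genes. At an unadjusted p under 0.05, 4 were higher and 2 lower in castrated samples, against 8.74% and 6.28% of all genes tested. Without castrated replicate 2, 2 of 60 had such a p, against 7.62% of all genes. All castrated samples were above both intact samples for 9 and below for 4 of the 61, beside 17.0% and 16.1% of all genes. With 1 intact mouse left, these counts moved. Without intact replicate 1, 35 of 60 were above (36.4% of all genes) and 14 below (35.6%). Without intact replicate 2, 29 of 61 were below (34.4%) and 13 above (33.0%). Their median log2 fold change was -0.10, and it was 0.74 without intact replicate 1 and -0.26 without intact replicate 2.

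Of 9 other ligands tested, 2 had an unadjusted p under 0.05, against 15.0% of all genes. The groups were separate for 3, against 33.1% of all genes: Gdf10 and Bmp6 (higher in castrated samples) and Bmp2 (lower). Bmp6, another BMP ligand, was at 9.04, 8.15 and 11.2 CPM in castrated samples, and at 6.0 and 1.35 CPM in intact samples, with a log2 difference of 1.36 (SE 0.68, edgeR adjusted p = 0.397). Bmp2, a BMP ligand close to BMP4, was at 35.1, 27.6 and 16.3 CPM in castrated samples, and at 94.0 and 43.6 CPM in intact samples. The groups did not overlap, with a log2 difference of -1.39 (SE 0.46, edgeR adjusted p = 0.302). Without intact replicate 1 it was -0.71. Gdf10, a BMP-related factor of stroma, was at 7.26, 51.2 and 105 CPM in castrated samples, and at 4.75 and 4.18 CPM in intact samples. Castrated replicates 2 and 3 were far above castrated replicate 1, and the log2 fold change of 3.60 (SE 1.14, edgeR adjusted p = 0.301) was 2.72 without castrated replicate 3. DESeq2 called Gdf10 with an adjusted p of 0.00806, within a range from 0.00806 to 0.731 over the alternatives.

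Of 10 other receptors, 6 had higher means in castrated samples, and the groups were separate for 2 genes in each direction. Of all genes, 17.0% were separate with castrated samples higher and 16.1% with castrated samples lower. Acvr2b, a type II receptor for activins, was lower in every castrated sample, at 3.94, 3.54 and 3.70 CPM against 5.06 and 7.62 CPM (log2 difference -0.77, SE 0.37). Bmpr2, the type II receptor for BMPs, was lower as well, at 193, 193 and 158 CPM against 220.0 and 228 CPM (log2 difference -0.30, SE 0.19). Acvrl1 and Eng were higher in every castrated sample. Acvrl1, which encodes ALK1, the type I receptor of endothelial cells for BMP9 and BMP10, was at 37.5, 48.4 and 60.3 CPM in castrated samples. In intact samples it was at 15.7 and 15.3 CPM, so that each castrated sample was more than 2-fold above both. Its fitted log2 difference was 1.65 (SE 0.28, edgeR adjusted p = 0.289), and it stayed between 1.48 and 1.81 when single mice were left out. DESeq2 gave an adjusted p of 5.77e-05 and the likelihood ratio test 0.0117, within a range from 5.77e-05 to 0.689 over the alternatives. Eng, which encodes endoglin, the co-receptor of ALK1 and a relative of betaglycan, was at 103, 66.9 and 61.9 CPM in castrated samples, and at 43.6 and 51.3 CPM in intact samples. Again the groups did not overlap, with a log2 difference of 0.70 (SE 0.29, edgeR adjusted p = 0.344), which was 0.44 without castrated replicate 1. Acvr1c, which encodes ALK7, a receptor known from fat cells, was at 0.105, 6.60 and 4.29 CPM in castrated samples, and at 0.0448 and 0.139 CPM in intact samples. It followed Adipoq in being high in castrated replicates 2 and 3 and near 0 elsewhere, and its groups overlapped. The log2 difference of Acvr1c was 5.23 (SE 1.85, edgeR adjusted p = 0.310), and it was 6.14 without intact replicate 2 and 4.67 without intact replicate 1. Without castrated replicate 2 or 3 the gene did not pass the filter. DESeq2 called it with a log2 difference of 5.33 and an adjusted p of 0.0248, within a range from 0.0248 to 0.693 over the alternatives that kept the gene.

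The SMAD transducers and the nuclear regulators were read as separate groups of genes. Of the 6 SMADs that carry the signal, none had an unadjusted p under 0.05 and none had separate groups. Of all genes, 15.0% had such a p and 33.1% had separate groups. Smad1 (log2 fold change 0.63, SE 0.60) was at 239.7 CPM in castrated replicate 1 and between 65.0 and 106 CPM in the other 4 samples, and without castrated replicate 1 its log2 fold change was -0.11. Smad9 (-1.33, SE 0.92) became 0.54 without intact replicate 2. Ski, a repressor of SMAD transcription, had a log2 difference of 0.60 (SE 0.30, edgeR adjusted p = 0.396) with overlapping groups.

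Among 10 genes of ligand latency and activation, 1 had separate groups, against 33.1% of all genes. This was Ltbp4, a matrix protein that anchors latent TGF-β. It was at 121, 166 and 340.3 CPM in castrated samples, and at 107 and 47.2 CPM in intact samples. Castrated replicate 1 was close to intact replicate 1, and the log2 fold change of 1.44 (SE 0.59, edgeR adjusted p = 0.343) was 0.91 without castrated replicate 3 and 2.17 without intact replicate 1. Lrrc32, which holds latent TGF-β on cell surfaces, had overlapping groups and a log2 fold change of 0.46, which was -0.02 without intact replicate 2. Of 9 secreted or decoy inhibitors, 7 had lower means in castrated samples, but the 2 with separate groups were higher. Separate groups were found in 33.1% of all genes. Chrd, which encodes chordin, a BMP antagonist, was at 8.58, 6.22 and 8.09 CPM in castrated samples, and at 4.17 and 3.25 CPM in intact samples. The difference on the log2 scale was 1.04 (SE 0.37, edgeR adjusted p = 0.316). Nbl1, another BMP antagonist, had a log2 difference of 1.15 (SE 0.49, edgeR adjusted p = 0.353), which was 0.57 without intact replicate 2 and 2.03 without intact replicate 1.

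**Figure D4:**
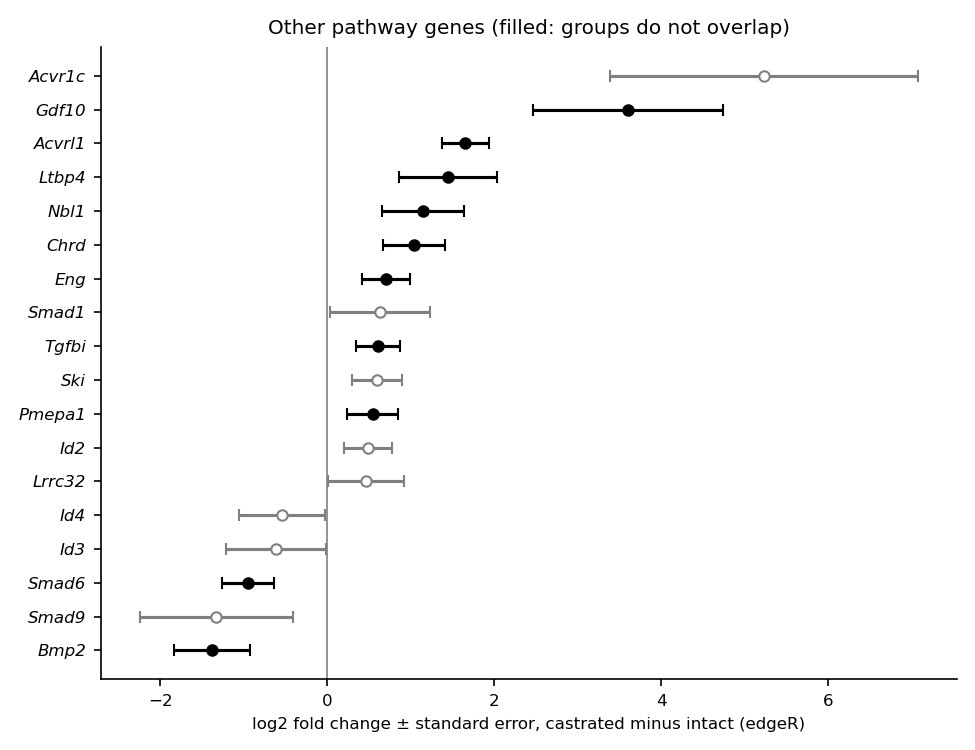
Log2 fold change of castrated over intact samples with its standard error from edgeR (x axis) for 18 named genes of the wider pathway. Filled points are genes with non-overlapping groups, such as Acvrl1 at 1.65, Chrd at 1.04, Smad6 at -0.95 and Bmp2 at -1.39, and open points are genes with overlapping groups.

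Among the target genes no difference passed the test. Of 11 tested, 5 had higher and 6 lower means in castrated samples. An unadjusted p under 0.05 was found for 0 of them, against 15.0% of all genes. All castrated samples were above both intact samples for 2 (Tgfbi and Pmepa1) and below for 0, against 17.0% and 16.1% of all genes. Tgfbi, an extracellular matrix protein named for its induction by TGF-β, was at 109.7, 184 and 137 CPM in castrated samples, and at 93.6 and 94.4 CPM in intact samples. On the log2 scale the difference was 0.61 (SE 0.27, edgeR adjusted p = 0.356). Pmepa1, a feedback inhibitor induced by TGF-β, had separate groups by a narrow margin, since castrated replicate 3 was at 157.6 CPM and intact replicate 1 at 157.4 CPM. The log2 difference of Pmepa1 was 0.54 (SE 0.30, edgeR adjusted p = 0.444), and it was 0.13 without intact replicate 2 and 1.07 without intact replicate 1.

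The Id genes, which are targets of BMP signaling, differed in their pattern across the mice. Id3 was at 201, 58.8 and 60.9 CPM in castrated samples, and at 149 and 179 CPM in intact samples, so that, as for Id1, castrated replicates 2 and 3 were low and castrated replicate 1 was not. The difference on the log2 scale was -0.62 (SE 0.60, edgeR adjusted p = 0.661), and -1.45 without castrated replicate 1. Id2 was at 85.4, 142 and 127 CPM in castrated samples, and at 96.3 and 72.4 CPM in intact samples, with castrated replicates 2 and 3 the highest. Id2 took 53.2% and 50.5% of the summed TPM of the 4 Id genes in castrated replicates 2 and 3, against 18.5% in castrated replicate 1 and 25.0% and 16.7% in intact replicates 1 and 2. Id4 was low, between 9.18 and 30.5 CPM, with overlapping groups.

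For each member, the gene most like it among the members, the pathway list and the marker lists was taken by the smallest root mean square difference of its centered log2 CPM over the 5 samples. For Id1 this gene was Id3 (0.17), for Tgfbr3 it was Chrd (0.30) and for Smad7 it was Bmpr2 (0.21). For Tgfbr2 it was Id2 (0.10), for Tgfbr1 Smad2 (0.17) and for Bmp7 Bmpr1b (0.13). For Tgfb1 it was Smurf1 (0.10), for Tgfb3 Msx1 (0.22), for Tgfb2 Acvr2a (0.36) and for Bmp4 Fstl3 (0.48). These are descriptions over 5 libraries, and the values of any pair of genes share the depth and tissue make-up of each library.

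Marker genes of other cell types differed between the groups beside these results, although 0 of 61 tested markers were called by the quasi-likelihood test. The likelihood ratio test called 16 and DESeq2 26, with Acta2, Dcn, Cd79a, Krt15 and Chga called by both, and limma voom called 0. Separate markers here had every castrated sample above both intact samples, as did 17.0% of all genes, a share that 1 of 6 or 1 of 4 markers does not clearly exceed. Of 7 smooth muscle markers, 6 had all castrated above both intact samples, and the summed level was 260.1, 465 and 375 TPM in castrated samples, and 135 and 66.4 TPM in intact samples, with Acta2 the most abundant. All 7 macrophage markers were separate in the same direction, at 1266, 3359 and 1539 TPM against 661 and 576 TPM, with C1qa the most abundant. Of 7 fibroblast markers 4 were, at 2740 TPM or more in castrated and 2298 TPM or less in intact samples, with Dcn the most abundant. The collagen markers Col1a1, Col1a2 and Col3a1 had overlapping groups, with log2 differences of -0.36, 0.01 and 0.09. Of 7 endothelial markers 3 were separate with castrated samples higher. The summed level of the 7 overlapped, at 290.3, 176 and 209 TPM in castrated samples, and at 299.6 and 84.5 TPM in intact samples. Of these, Kdr and Tek had an unadjusted p under 0.05, while Cdh5, the most abundant, was at 227 CPM in intact replicate 1 and between 41.4 and 82.4 CPM in the other samples. Markers of B cells (Cd79a the most abundant) were separate for 4 of 4 genes, at 16.2, 95.8 and 109 TPM in castrated samples and at 4.53 TPM or less in intact samples. Those of T cells (Cd3g) were separate for 1 of 6 genes, at 16.8, 75.1 and 68.8 TPM against 4.27 and 37.4 TPM. Fat cell markers (Fabp4) were at 1291 and 973 TPM for castrated replicates 2 and 3, but between 95.1 and 143 TPM in the other 3 samples, and Lep had no count in those 3. All castrated samples were above both intact samples for 5 of the 7. For Plin1 this rested on 3 counts in castrated replicate 1, against 2 and 0 in intact replicates 1 and 2. For Retn it rested on 2 counts, against 1 and 0. Counting error does not tell such values apart. Neuroendocrine markers (Chga) were separate for 3 of 3 tested genes, at 10.1 TPM or more in castrated samples and at 0.974 TPM or less in intact samples. Markers of luminal epithelium (Krt18) were separate for 0 of 7 genes, at 4907, 4574 and 5461 TPM against 7300 and 3638 TPM, and those of basal epithelium (Krt15) for 1 of 4, at 371, 415 and 981 TPM against 94.7 and 585 TPM. Of 6 prostate identity and secretion markers 2 were tested and 0 were separate, and their summed level was 27.5 TPM or more in castrated samples, and 10.6 and 1493 TPM in intact replicates 1 and 2. The part of these cell types in the levels of Tgfbr3, Smad7 and the other genes was not tested.

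**Figure D5:**
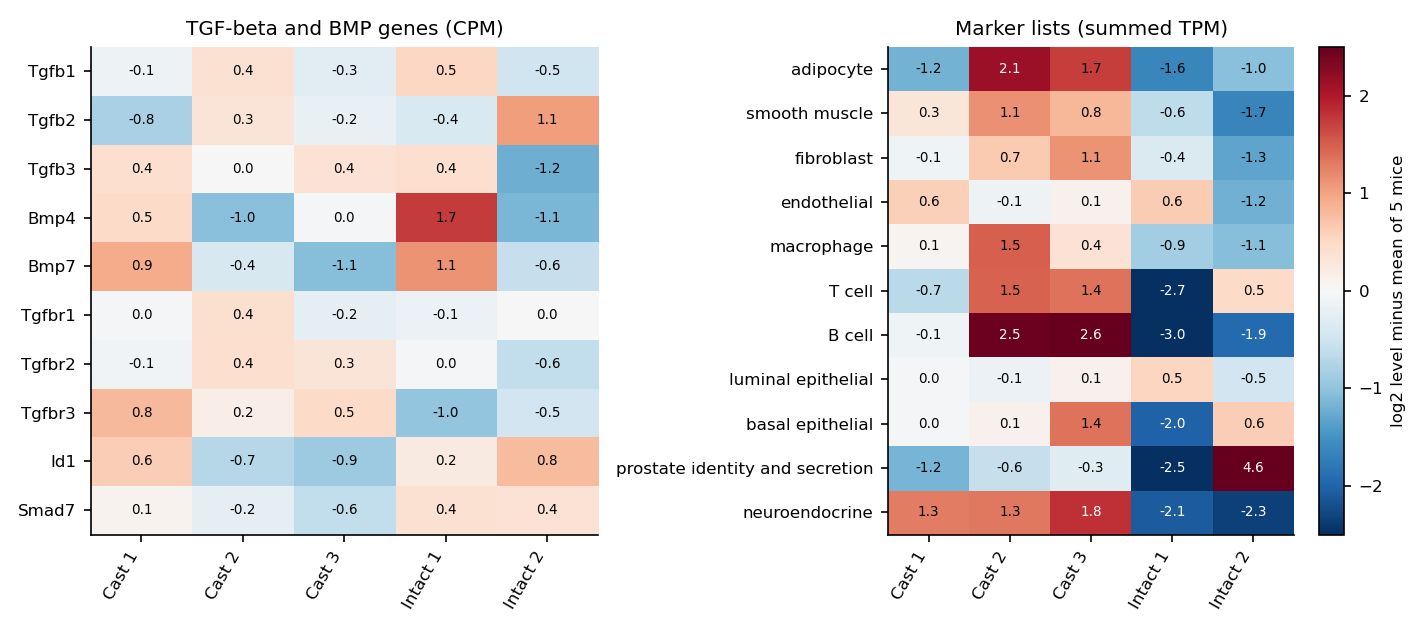
Log2 level of the 10 genes (left, TMM-scaled CPM) and of the summed TPM of each marker list (right) in each mouse, relative to the mean of the 5 mice; red is above and blue below that mean. Smooth muscle, macrophage and neuroendocrine markers were above their mean in all castrated mice, prostate identity and secretion markers were high in intact replicate 2, and fat cell markers were high in castrated replicates 2 and 3.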

How the data were processed

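RNA depleted of ribosomal RNA was sequenced from tumors of 5 TripleTg mice (3 castrated, 2 intact). Per the labels and the study's methods, the authors used Trimmomatic 0.39 for trimming of paired-end reads, STAR 2.7.9 for alignment to mm10 and HTSeq 2.0.2 for counting per gene. The deposited values are raw counts, and whether counting used the strand is not given in the sources used here. Gm15217 and Mir3472, the genes whose spans overlap members, had 0 counts. The deposited gene length in kilobases, an auxiliary value, was used for TPM only.

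A CPM above 1 was required in 2 or more samples, which left 14612 genes for the quasi-likelihood F-test of edgeR 4.0.16 with TMM normalization (R 4.3.3), following the test, filter and thresholds of the study's methods. Counts were the input, although the methods name TPM. P-values were adjusted over all genes tested (Benjamini-Hochberg), and genes under 0.05 with an absolute log2 fold change above 1 were called. The standard error was taken as the size of the log2 fold change over the root of F. DESeq2 1.42.0 and limma 3.58.1 were alternatives. Each test was checked on simulated data, where DESeq2 and the likelihood ratio test called more unchanged genes than the quasi-likelihood test did, and also found more of the changed genes, most of which the quasi-likelihood test missed at the smaller fold changes.

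The members, gene lists and tests were chosen with earlier results of these data known. Named genes were the members, the 2 genes of smallest unadjusted p in each role group of the pathway list, further genes set by name (Id2, Id3, Id4, Smad6 and Eng among them), the most abundant gene of each marker list with markers at 0 in every sample, and the gene most like each member. Krt8, Pbsn, Bmp6, Acvr2b, Adipoq, Lep, Plin1, Retn, Col1a1, Col1a2, Col3a1, Kdr and Tek were named after their values were seen. Same-numbered samples are different animals. All 5 count columns were used. Values of some single listed genes are not reported here.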

Additional observations from a re-analysis of the deposited data

How the results depend on the processing

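Alternatives were DESeq2, the likelihood ratio test, limma voom, 2 other scalings, 2 other filters, the replicate block and leaving out each mouse, and, chosen after seeing the data, the older quasi-likelihood fit of edgeR. Across all genes, edgeR called 0, with 2195 at an unadjusted p under 0.05, while DESeq2 called 989 and the likelihood ratio test 369; among the 10 members these called 1 and 0, and among the pathway genes 3 and 1. Leaving out single mice gave between 0 and 1 called genes (1 without intact replicate 1). With the replicate block no member was called, Tgfbr3 had a log2 difference of 1.21 and Tgfb1 reversed to 0.12, and 1046 genes had an unadjusted p under 0.05. Same-numbered samples had a correlation of deviations of 0.149 for replicate 1 and -0.045 for replicate 2. With 2 intact mice their deviations mirror each other, so this check cannot decide whether the mice were paired. Directions reversed when single mice were left out for Tgfb1 (-0.54 to 0.54), Tgfb2 (-1.18 to 0.19), Tgfb3 (-0.18 to 1.52), Bmp4 (-1.86 to 1.10), Bmp7 (-1.21 to 0.66), Tgfbr1 (-0.0485 to 0.28), Id4 (-1.08 to 0.23), Lrrc32 (-0.0178 to 1.10), Smad1 (-0.11 to 1.05), Smad9 (-2.11 to 0.54), Cdh5 (-1.67 to 0.85) and Krt18 (-0.54 to 0.031). Tgfbr2, Tgfbr3, Id1 and Smad7 kept their direction under every alternative run. The count of members at an unadjusted p under 0.05 was 1 of 10, but 3 of 10 without castrated replicate 1. The share of all genes was 15.0% and 16.5%. For the pathway list the count was 6, or 9.84% of the 61 genes tested. It was 2 (3.33%) without castrated replicate 2, 3 (4.92%) with the replicate block and 10 (16.4%) with DESeq2. Over all genes these 3 settings gave 7.62%, 7.16% and 20.7%. The count over all genes moved too, to 1094 without castrated replicate 2, 1011 without castrated replicate 3 and 3029 with DESeq2. The cause of these changes was not tested. Members had 307 or more counts in every sample, and the common dispersion between mice was 0.238.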
